A study of Mus musculus with 6 samples.

Results

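Genes of fatty acid oxidation and ketone body metabolism were followed in NMuMG cells, an epithelial line from normal mouse mammary gland, by RNA-seq. The set was a fixed list of 32 gene symbols covering the steps of the pathway, and all 32 had a row among the 18512 rows of the count table. The list was drawn up with earlier results of these data known. The 3 groups were cells given DMSO (the vehicle), TGF-β (5 ng/ml), or both TGF-β (5 ng/ml) and 2APB (50 uM). The study uses 2APB as an inhibitor of store-operated calcium entry and proposes that it raises entry through the channel ORAI3. Each group had 2 replicates, with a treatment given as 24 h. The methods of the study place 2APB ahead of TGF-β, so the length of exposure to each agent is uncertain. There was no group with 2APB alone, so 2APB was measured only on top of TGF-β. All 6 libraries came from 1 line. The study calls the replicates biological, without saying in the sources used here how they were grown, and p-values measure the spread between these libraries.

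Fatty acids are bound in the cytosol, joined to coenzyme A, carried into mitochondria as carnitine esters, and shortened in rounds of reactions that release acetyl-CoA and pass electrons to the respiratory chain. Peroxisomes run a similar cycle on very long and branched chains, and the liver turns surplus acetyl-CoA into ketone bodies. Many of these genes are known targets of PPARα (Ppara), a nuclear receptor that is activated by fatty acids, and of its coactivator PGC-1α (Ppargc1a). PPARα binds DNA with its partner RXR at a direct repeat of AGGTCA with 1 base between the copies, an element that HNF4A can also bind.

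The promoters of the members, from RefSeq on GRCm38.p6 (250 bases before to 50 after each start site), were searched on both strands for this direct repeat, and 30 of the 32 genes were matched. The exact repeat was found in 0 of the 30 and in 0.0481% of the 27025 genes with a window. With up to 2 mismatches in the 12 bases of the repeat, it was found in 4 of the 30 (13.3%), against 4.4% of all genes, and a single AGGTCA in 4 of the 30 (13.3%), against 18.1%. These are matches of letters, and the expression data do not measure binding. The match with the fewest mismatches was in the promoter of Fabp1, the liver-type fatty acid binding protein. It is printed whole because Fabp1 reads were found in the DMSO libraries alone. It lies at chr6:71199629-71199928 on the plus strand, and the match, in capitals, is on the opposite strand with 1 mismatch and starts 67 bases before the start site.
Fabp1: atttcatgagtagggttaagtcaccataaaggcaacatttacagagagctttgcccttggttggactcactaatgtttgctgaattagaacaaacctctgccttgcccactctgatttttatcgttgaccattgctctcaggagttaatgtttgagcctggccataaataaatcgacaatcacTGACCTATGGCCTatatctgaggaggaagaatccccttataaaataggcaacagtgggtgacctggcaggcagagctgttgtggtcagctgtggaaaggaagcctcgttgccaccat
The other 3 genes with a match are shown by the matched bases, with 2 mismatches each. They are shown since Etfa and Slc25a20 were among the members that fell and Acox2 was the 1 member that rose. The Etfa match is on the strand opposite to the bases shown, and those of Slc25a20 and Acox2 are on the strand shown. The windows were chr9:55512194-55512493 on the minus strand for Etfa, chr9:108661886-108662185 on the plus strand for Slc25a20, and chr14:8258790-8259089 on the minus strand for Acox2, which has another window without such a match.
Etfa: TTACCTTTGCCCT
Slc25a20: AGGTGAAAGGTCG
Acox2: AGGACAGAGGTGA

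The libraries held 71840570 to 79473182 counts. Normalized counts below are counts scaled to the mean effective library, and a gene was tested where they averaged at least 20 over the 6 libraries, which 30 of the 32 members and 13353 genes in all did. Fabp1 and Ehhadh did not pass. The 3 comparisons below came from 1 edgeR quasi-likelihood fit over all genes, a gene was called at a Benjamini-Hochberg FDR of 0.05 or less, and log2 fold changes are given ± SE. As a check of the cell label, the keratins Krt8 and Krt18 of luminal epithelium ran from 155860 to 736744 counts and E-cadherin (Cdh1) from 35416 to 92780, while Epcam had 52 to 158 counts and Elf5 2 to 18. Of the 7 luminal markers, 6 were tested and several moved with treatment. With TGF-β, Krt8 and Krt18 rose by 0.66 ± 0.091 and 0.92 ± 0.098 on the log2 scale, Cdh1 changed by -0.78 ± 0.13, Krt19 by -2.04 ± 0.35 and Epcam by -1.42 ± 0.30, all called. With TGF-β+2APB, Krt7, Krt8 and Krt18 rose by 1.06 ± 0.14, 1.55 ± 0.092 and 1.81 ± 0.10, Cdh1 changed by -1.26 ± 0.13, Krt19 by -4.09 ± 0.39 and Epcam by -0.97 ± 0.30. Of the 5 myoepithelial markers, Krt5, Krt14, Trp63 and Myh11 had at most 12 counts in any library, and Acta2 had 20 and 10 counts in DMSO and 46 to 110 in treated libraries (2.36 ± 0.53, FDR 0.017, and 2.56 ± 0.53, FDR 0.0097, against DMSO). The part of these epithelial markers in the change of the pathway was not tested. Markers of hepatocytes, which are rich in this pathway, were present in these cells. Against DMSO most of those tested moved with the pathway, as given further on.

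With TGF-β alone, most of the pathway fell. Of the 30 members tested, 24 were lower than in DMSO (19.7% of all genes tested were lower) and 0 were higher (21.8% of all genes), while 6 were not called. The median log2 fold change was -0.60 over the members and -0.010 over all genes tested. With TGF-β+2APB, 23 members were lower than in DMSO (27.2% of all genes), 1 was higher (25.6% of all genes) and 6 were not called, with a median of -0.78 against -0.0033 over all genes. Both comparisons use the same DMSO libraries. TGF-β+2APB against TGF-β gave 3 lower members (10.9% of all genes), 1 higher (6.58%) and 26 not called, with a median of -0.13 against -0.0037. The summed normalized counts of the 32 members were 209932 and 200757 in DMSO, 136520 and 117766 under TGF-β, and 114863 and 116213 under TGF-β+2APB, and the ranges of the DMSO and the treated libraries did not overlap. In a bulk sample, fewer expressing cells and less RNA per cell cannot be told apart.

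The number of calls depended on the libraries in the fit, among the members and over all genes. In TGF-β against DMSO 11 members were called without DMSO replicate 1 (9.66% of all genes lower) and 13 without DMSO replicate 2 (10.4% lower), all of them lower, with 19 called without either TGF-β+2APB library, and where a DMSO library was left out the other was assumed to vary like the other groups. Under all 15 alternative settings the call was made for Ppara, Acsl1, Acot1, Cpt1a, Acadm, Etfa, Etfdh, Hadh, Ech1, Decr2 and Bdh1, which are 11 of the 24. The other 13 calls were all lost without DMSO replicate 1, with FDR values from 0.054 for Acot2 to 0.24 for Acadl. In TGF-β+2APB against DMSO 18 of the 24 calls were made under all 15 settings, and those of Slc25a20, Hadha, Eci2, Acox2, Acaa1a and Pex11a were lost when DMSO replicate 1, TGF-β+2APB replicate 1 or other libraries were left out, with FDR values from 0.052 for Acox2 to 0.21 for Pex11a. In TGF-β+2APB against TGF-β the calls of Cpt1a, Acaa2 and Acox2 were, and that of Acadm was not, while 14 members, 13 of them lower, were called without TGF-β replicate 2, where 21.9% of all genes were lower and 18.4% higher.

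**Figure D1:**
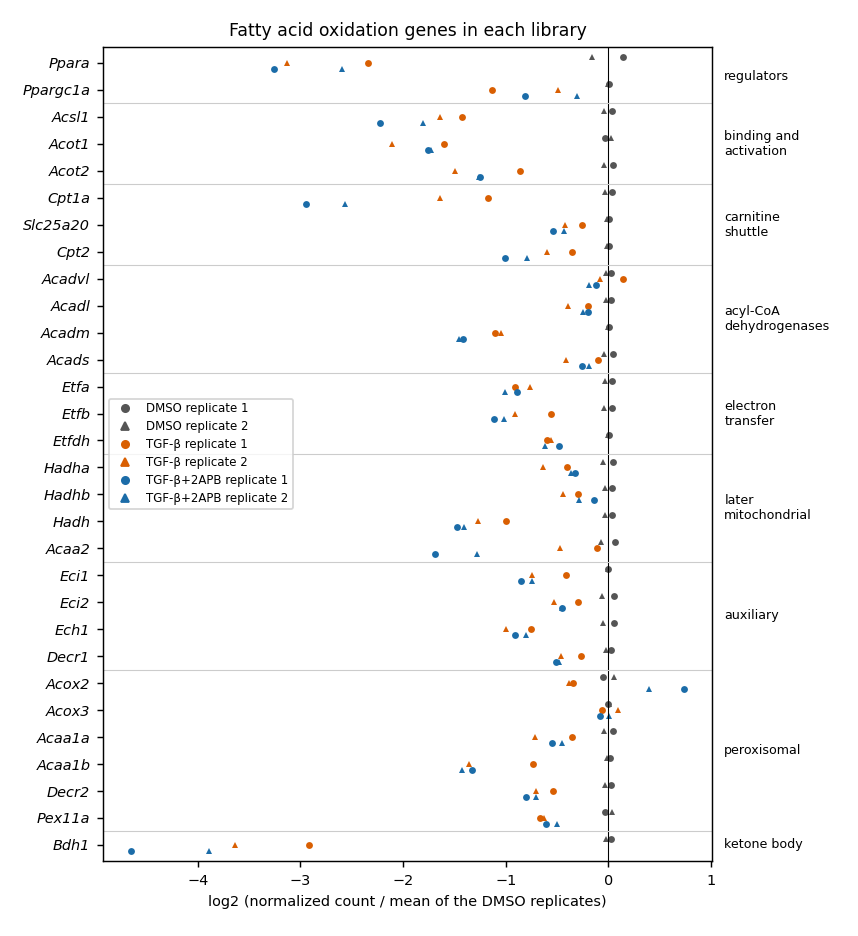
Each row is a tested member, grouped by role, and each point a library, at the log2 ratio of its normalized count to the mean of the 2 DMSO replicates (x axis). Most treated libraries lie left of 0, with Ppara and Bdh1 farthest and Acadvl and Acox3 near 0, and Acox2 lies right of 0 in both TGF-β+2APB libraries.

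Among the regulators, Ppara had 501.2 and 407 normalized counts in DMSO, 89.6 and 51.9 under TGF-β, and 47.5 and 75.0 under TGF-β+2APB. Both treated groups lay below DMSO and overlapped each other. Ppara fell by 2.68 ± 0.37 on the log2 scale with TGF-β (6.4-fold, FDR 0.0030) and by 2.89 ± 0.37 with TGF-β+2APB (FDR 0.0016), and the difference between the treated groups was -0.21 ± 0.36 (FDR 0.73). Ppargc1a had 862.9 and 855.3 in DMSO, 391.5 and 610.1 under TGF-β, and 489 and 694.5 under TGF-β+2APB. Its 4 treated libraries were all below DMSO, but the treated replicates were far apart. The differences were not called (-0.78 ± 0.26, FDR 0.058, and -0.54 ± 0.26, FDR 0.13). Of the 15 alternative settings, 6 called the difference with TGF-β, DESeq2 among them (FDR 0.024), and 3 that with TGF-β+2APB.

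All 3 tested genes that bind, activate or release fatty acids fell in both treated groups, with medians of -1.53 and -1.74. Fabp1, which was not tested, had 34 and 26 counts in the DMSO libraries and 0 in each of the other 4. The DMSO mean was 9.99 times a floor of 3 counts per library under TGF-β and 10.2 times that floor under TGF-β+2APB. The floor is meant to cover counting error in the treated libraries only, and not in the DMSO counts. All deposited values were even, so it may stand for fewer than 3 reads per library. Acsl1, which joins long-chain fatty acids to coenzyme A and so commits them to further use, had 4238 and 4020 normalized counts in DMSO, 1537 and 1324 under TGF-β, and 883 and 1180 under TGF-β+2APB. It fell by 1.53 ± 0.16 on the log2 scale with TGF-β (FDR 0.0011) and by 2.00 ± 0.16 with TGF-β+2APB (FDR 0.00028), and the step between the treated groups, -0.47 ± 0.16, was not called (FDR 0.097). The thioesterases Acot1, in the cytosol, and Acot2, in mitochondria, free the fatty acid again. Their log2 fold changes were -1.83 ± 0.19 and -1.15 ± 0.21 under TGF-β, followed by -1.74 ± 0.19 and -1.26 ± 0.21 under TGF-β+2APB, all called lower. These neighbouring genes are near copies, with 17.6% of the 50-base stretches of the Acot1 transcript also found in Acot2, so the split of reads between them is uncertain.

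The carnitine shuttle was lower at each of its 3 steps, and its entry enzyme fell most. Cpt1a (chr19:3322334-3385733, plus strand, GRCm38) encodes the outer-membrane enzyme that makes carnitine esters and is the main point of control of the pathway. It had 25601 and 24439 normalized counts in DMSO, 11099 and 8029 under TGF-β, and 3245 and 4222 under TGF-β+2APB, so the 3 groups did not overlap and stood in that order. Cpt1a fell by 1.39 ± 0.19 on the log2 scale with TGF-β (2.62-fold, FDR 0.0031) and by 2.74 ± 0.20 with TGF-β+2APB (6.7-fold, FDR 0.00021). The difference of -1.36 ± 0.19 between the treated groups was called as well (2.56-fold lower with 2APB, FDR 0.011), and its FDR was at most 0.042 under the alternative settings. The carrier Slc25a20, which moves acylcarnitine across the inner membrane, and Cpt2, which re-forms acyl-CoA inside, moved less. Slc25a20 changed by -0.34 ± 0.090 and -0.48 ± 0.090, and Cpt2 by -0.47 ± 0.12 and -0.89 ± 0.12, in TGF-β and TGF-β+2APB against DMSO, and all 4 were called. Cpt2 with 2APB was below TGF-β alone by 0.42 ± 0.12 without being called (FDR 0.063).

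**Figure D2:**
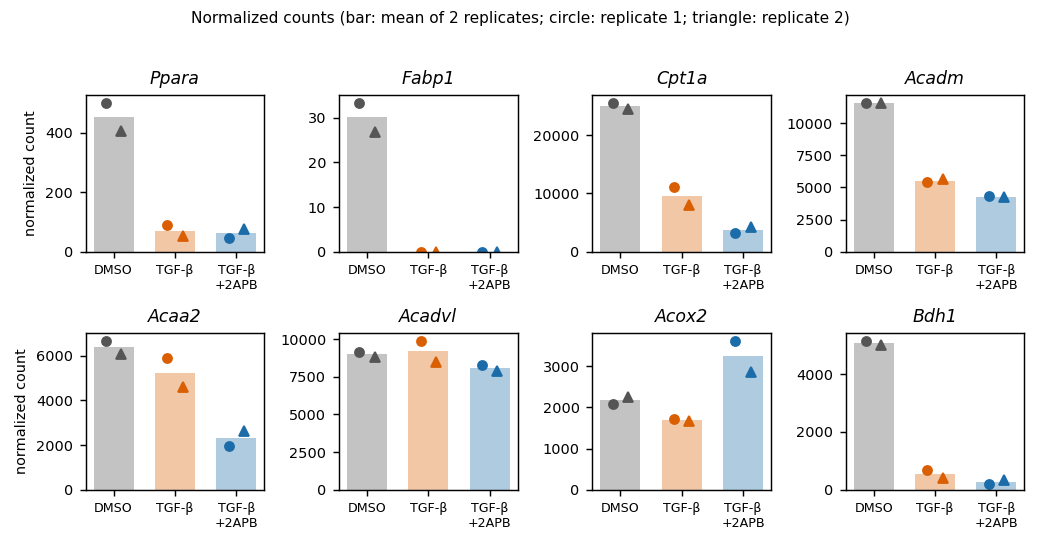
Normalized counts (y axis, from 0) of 8 members in the 3 groups, with bars at the mean of 2 replicates and points for each library. Cpt1a falls at each step, Acaa2 is low with TGF-β+2APB alone, Acox2 is highest with TGF-β+2APB, Fabp1 is at 0 in all treated libraries, and Acadvl changes little.

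The acyl-CoA dehydrogenases carry out the first reaction of each round and differ in the chain length they take. They did not move as a block. Acadm, for medium chains, had 11600 and 11578 normalized counts in DMSO, 5405 and 5615 under TGF-β, and 4348 and 4224 under TGF-β+2APB. Its replicates were close and the groups separate, with falls of 1.07 ± 0.069 (FDR 0.00023) and 1.44 ± 0.069 (FDR 5.98e-05) on the log2 scale against DMSO. The smaller difference between the treated groups, -0.36 ± 0.068, was called (FDR 0.021), but not when a DMSO library (FDR 0.092) or TGF-β+2APB replicate 1 (FDR 0.11) or 2 (FDR 0.15) was left out. Acadl, for long chains, was 13377 and 12979 in DMSO, 11514 and 10025 under TGF-β, and 11501 and 11134 under TGF-β+2APB, a small fall that was called with TGF-β (-0.29 ± 0.089, FDR 0.045) and not with TGF-β+2APB (-0.22 ± 0.089, FDR 0.085). Without DMSO replicate 1 or 2 the Acadl call with TGF-β was lost (FDR 0.24 and 0.18), as it was without TGF-β+2APB replicate 1 or 2 (FDR 0.14 each).

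Acadvl, for very long chains, and Acads, for short chains, were not called in any comparison. Acadvl had 9124 and 8838 normalized counts in DMSO, 9907 and 8481 under TGF-β, and 8254 and 7878 under TGF-β+2APB. The TGF-β libraries lay on both sides of DMSO (0.034 ± 0.096 on the log2 scale, FDR 0.80). Acads was at -0.25 ± 0.12 (FDR 0.15) with TGF-β and -0.22 ± 0.12 (FDR 0.17) with TGF-β+2APB. Acadvl overlaps exons of Dvl2 on the other strand, and reads of the pair cannot be told apart without strand, a setting not given in the sources used here.

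The dehydrogenases hand their electrons to the electron transfer flavoprotein, made of Etfa and Etfb, and from there to Etfdh, which reduces ubiquinone. All 3 genes fell in both treated groups. Etfa had 12849 and 12307 normalized counts in DMSO, 6709 and 7402 under TGF-β, and 6777 and 6250 under TGF-β+2APB. The treated groups overlapped, at means of 56.1% and 51.8% of that in DMSO, with changes of -0.83 ± 0.087 (FDR 0.0011) and -0.95 ± 0.087 (FDR 0.00044). Etfb changed by -0.73 ± 0.13 and -1.07 ± 0.13, and Etfdh by -0.58 ± 0.074 and -0.55 ± 0.074, all called. Of the 50-base stretches of Etfb, 67.3% also lie in the overlapping predicted gene Gm45233, which has no row in the table.

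For the later reactions of each round, the largest changes with TGF-β+2APB against DMSO were in Hadh, the dehydrogenase for shorter chains, and in Acaa2. Hadha and Hadhb, the subunits of the trifunctional protein for long chains, changed less. With TGF-β alone Hadh changed most of these genes and Acaa2 least. Hadh had 18381 and 17448 normalized counts in DMSO, 8970 and 7425 under TGF-β, and 6436 and 6763 under TGF-β+2APB. Its falls were 1.13 ± 0.11 (FDR 0.00086) and 1.44 ± 0.11 (FDR 0.00023) on the log2 scale. Hadha changed by -0.52 ± 0.10 with TGF-β (FDR 0.0097) and -0.34 ± 0.10 with TGF-β+2APB (FDR 0.031), and Hadhb by -0.37 ± 0.091 (FDR 0.023) and -0.21 ± 0.091 (FDR 0.10, not called). The TGF-β calls were lost without DMSO replicate 1 or 2 for Hadha (FDR 0.087 and 0.052) and Hadhb (FDR 0.16 and 0.11).

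Acaa2 is the mitochondrial thiolase that releases acetyl-CoA at the end of each round. It was the 1 member called lower in both comparisons that involve 2APB and not with TGF-β alone. It had 6679 and 6068 normalized counts in DMSO, 5881 and 4605 under TGF-β, and 1976 and 2616 under TGF-β+2APB. With TGF-β its value of -0.28 ± 0.18 on the log2 scale was not called (FDR 0.25), while TGF-β+2APB was lower than DMSO by 1.47 ± 0.18 (FDR 0.0012). The difference between the treated groups was -1.19 ± 0.18 (2.28-fold lower with 2APB, FDR 0.012), with an FDR of at most 0.043 under the alternative settings.

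The auxiliary enzymes reshape double bonds so that unsaturated chains can enter the cycle, and all 4 fell in both treated groups. Ech1, a dienoyl-CoA isomerase, had the highest level per length of the members in DMSO, in counts per base of the longest transcript. It had 17320 and 16119 normalized counts in DMSO, 9942 and 8392 under TGF-β, and 8899 and 9561 under TGF-β+2APB, and the treated groups overlapped. Its changes against DMSO were -0.87 ± 0.11 (FDR 0.0020) and -0.86 ± 0.11 (FDR 0.0013) on the log2 scale. The enoyl-CoA isomerases Eci1 and Eci2 and the reductase Decr1 changed by -0.57 ± 0.12, -0.41 ± 0.10 and -0.36 ± 0.085 with TGF-β, and by -0.80 ± 0.12, -0.45 ± 0.10 and -0.50 ± 0.085 with TGF-β+2APB. Without DMSO replicate 1 or 2 the calls with TGF-β were lost for Eci1 (FDR 0.080 and 0.078), Eci2 (FDR 0.16 and 0.078) and Decr1 (FDR 0.14 and 0.10).

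The peroxisomal genes held the 1 member that rose. Acox2 (chr14:8225511-8259353, minus strand, GRCm38) encodes the oxidase for branched chains and bile acid intermediates. It had 2089 and 2246 normalized counts in DMSO, 1706 and 1666 under TGF-β, and 3623 and 2861 under TGF-β+2APB, so TGF-β+2APB was the highest of 3 groups that did not overlap. The difference between the treated groups was 0.94 ± 0.13 on the log2 scale (1.92-fold higher with 2APB, FDR 0.0090), with an FDR of at most 0.037 under the alternative settings. Against DMSO, Acox2 with TGF-β+2APB was higher by 0.58 ± 0.12 (FDR 0.011), a call that was lost without DMSO replicate 1 (FDR 0.081), DMSO replicate 2 (FDR 0.052) or TGF-β+2APB replicate 1 (0.39, FDR 0.063). Acox2 with TGF-β alone was at -0.36 ± 0.13 (FDR 0.066), which was not called, though DESeq2 called it (FDR 0.042). Acox3, the oxidase for pristanoyl-CoA, had 2543 and 2570 in DMSO, 2443 and 2733 under TGF-β, and 2413 and 2569 under TGF-β+2APB. Its 3 groups overlapped, with differences of 0.017 ± 0.084 and -0.038 ± 0.084 from DMSO.

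The other peroxisomal members were lower in both treated groups where they could be tested. The thiolases Acaa1a and Acaa1b changed by -0.52 ± 0.13 and -1.01 ± 0.24 with TGF-β and by -0.50 ± 0.13 and -1.38 ± 0.24 with TGF-β+2APB. They are near copies, with 35.5% of the 50-base stretches of Acaa1b also in Acaa1a, so their separate values are uncertain. Decr2, the peroxisomal dienoyl-CoA reductase, changed by -0.62 ± 0.088 and -0.76 ± 0.088, and Pex11a, which acts in peroxisome division, by -0.64 ± 0.17 and -0.55 ± 0.17. Ehhadh, the bifunctional enzyme of the classical peroxisomal cycle, had 4 counts in each DMSO library and 2 or 0 in the others, too few for a comparison at this depth.

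Bdh1 (chr16:31422280-31458901, plus strand, GRCm38), which interconverts the ketone bodies acetoacetate and 3-hydroxybutyrate, fell more than any other tested member in both comparisons with DMSO. It had 5167 and 5000 normalized counts in DMSO, 674 and 408.8 under TGF-β, and 201.9 and 343.3 under TGF-β+2APB. It fell by 3.23 ± 0.33 on the log2 scale under TGF-β (9.38-fold, FDR 0.0010) and fell by 4.22 ± 0.34 under TGF-β+2APB (18.6-fold, FDR 0.00030). The 2 TGF-β+2APB libraries lay below the 2 TGF-β libraries, but the difference of -0.99 ± 0.32 was not called (FDR 0.091), while DESeq2 called it (FDR 0.017).

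**Figure D3:**
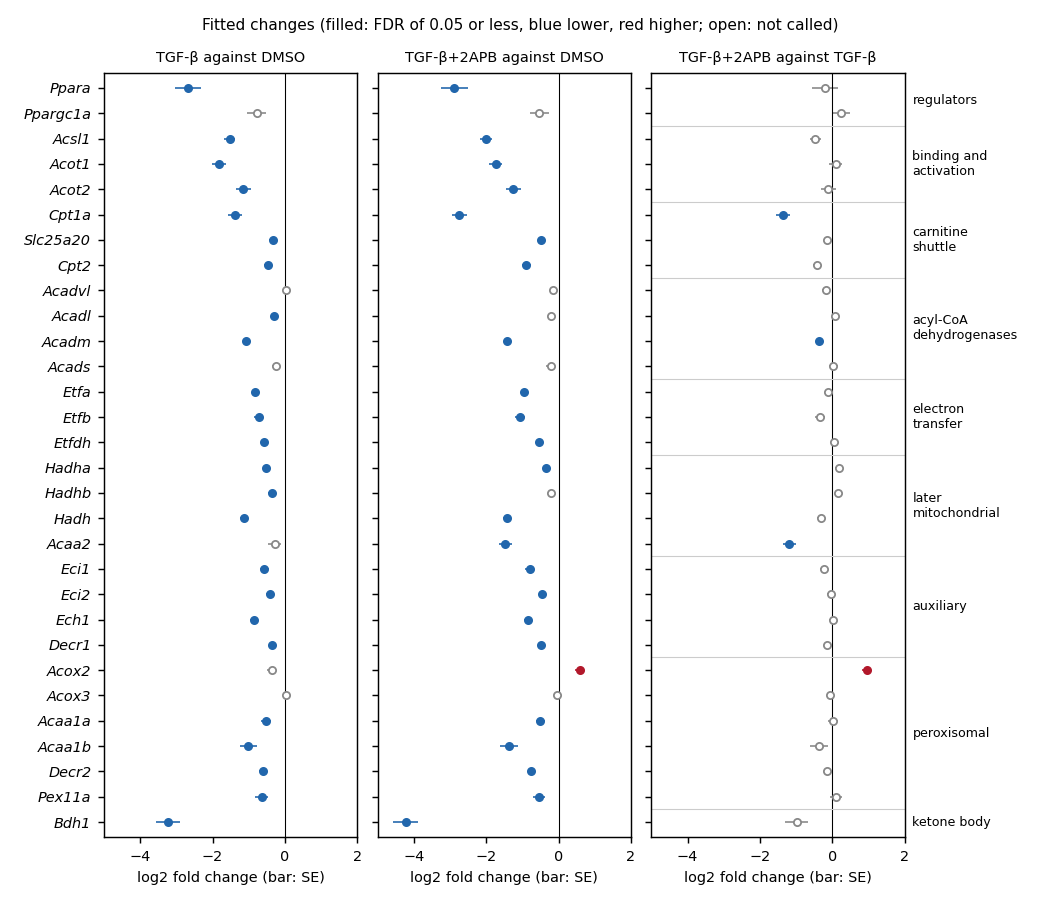
Log2 fold change (x axis, bars are SE) of the 30 tested members in the 3 comparisons, with filled points called and open points not called. Calls are on the lower side for 24 members with TGF-β and 23 with TGF-β+2APB, and in TGF-β+2APB against TGF-β the filled points are Cpt1a, Acadm and Acaa2 (lower) and Acox2 (higher).

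Set side by side over the 3 comparisons, the members fell into 6 patterns of calls. The share of all genes tested with each pattern was not counted. Both comparisons with DMSO use the same DMSO libraries. There were 20 members lower than DMSO in both treated groups with no call between them. Cpt1a and Acadm were lower in all 3 comparisons. Acadl and Hadhb were called only with TGF-β, and since they were not called between the treated groups either, this does not show that 2APB changed them. Acaa2 was lower and Acox2 higher in both comparisons that involve 2APB. Ppargc1a, Acadvl, Acads and Acox3 were called in none.

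A second list held 67 other genes of the pathway, all present, of which 54 were tested. With TGF-β, 33 of them were lower (19.7% of all genes), 5 higher (21.8%) and 16 not called, and the median log2 fold change was -0.69 against -0.010 over all genes. With TGF-β+2APB, 35 were lower (27.2% of all genes), 6 higher (25.6%) and 13 not called, with a median of -0.59 against -0.0033. Between the treated groups 11 were lower with 2APB (10.9% of all genes), 5 higher (6.58%) and 38 not called, with a median of -0.067 against -0.0037. In each comparison the number of calls depended on the libraries in the fit, among these genes and over all genes.

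Of the 14 other peroxisomal genes tested, 9 were lower than DMSO in each treated group (19.7% of all genes with TGF-β and 27.2% with TGF-β+2APB), and 1, Hsd17b4, was higher in each. Crot, which makes carnitine esters in peroxisomes, fell by 2.12 ± 0.089 on the log2 scale with TGF-β and by 2.56 ± 0.091 with TGF-β+2APB. The synthetase Acsl4 changed by -1.68 ± 0.17 and -2.38 ± 0.18, the racemase Amacr by -1.67 ± 0.13 and -2.10 ± 0.13, and Hacl1, a lyase of branched chain oxidation, by -1.61 ± 0.18 and -2.79 ± 0.19, all called lower. Crot (-0.45 ± 0.086, FDR 0.023), Acsl4 (-0.71 ± 0.17, FDR 0.042) and Hacl1 (-1.19 ± 0.19, FDR 0.014) were also lower with TGF-β+2APB than with TGF-β. Amacr was not called there (-0.43 ± 0.13, FDR 0.075). Pex7, a peroxisomal import receptor, was lower with TGF-β+2APB than with TGF-β (-0.78 ± 0.080, FDR 0.0051). Cpt1b, the muscle form of Cpt1a, had 6 to 22 counts per library and was not tested.

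Of the 6 other genes of ketone body synthesis and use that were tested, 4 were lower than DMSO with TGF-β (19.7% of all genes) and 5 with TGF-β+2APB (27.2%). Oxct1, which starts the use of ketone bodies, fell by 1.10 ± 0.084 on the log2 scale with TGF-β and by 1.71 ± 0.085 with TGF-β+2APB, and the drop of 0.61 ± 0.084 between the treated groups was called (FDR 0.0098). Aacs, which activates acetoacetate in the cytosol, was lower with TGF-β+2APB than with TGF-β by 0.83 ± 0.11. Bdh2, a cytosolic dehydrogenase, went the other way: it had 163.1 and 202.5 normalized counts in DMSO, 42.9 and 35.3 under TGF-β, and 146.5 and 130.2 under TGF-β+2APB. It fell by 2.22 ± 0.26 with TGF-β (FDR 0.0017), was 1.82 ± 0.26 higher with TGF-β+2APB than with TGF-β (FDR 0.011), and was not called in TGF-β+2APB against DMSO (-0.40 ± 0.24, FDR 0.22).

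Known PPAR targets outside oxidation did not share a direction, with 3 higher (21.8% of all genes) and 2 lower (19.7%) of 6 tested with TGF-β. Vnn1, a pantetheinase, had 23903 and 22018 normalized counts in DMSO, 1389 and 931.8 under TGF-β, and 368.2 and 580.1 under TGF-β+2APB, changes of -4.31 ± 0.29 and -5.60 ± 0.31 on the log2 scale. Creb3l3, a liver and gut transcription factor, had 240 and 266 counts in DMSO and at most 30 in any treated library (-5.18 ± 1.05, FDR 0.012, and -3.25 ± 0.92, FDR 0.029). Pdk4, which holds glucose carbon back from oxidation, rose instead, from 310.5 and 237.6 in DMSO to 703.2 and 713.9 under TGF-β and 712.7 and 732 under TGF-β+2APB (1.37 ± 0.15 and 1.40 ± 0.15). Angptl4, an inhibitor of lipoprotein lipase, was 965.1 and 954.5 in DMSO, 2156 and 1971 under TGF-β, and 918.6 and 1061 under TGF-β+2APB. It rose by 1.10 ± 0.11 with TGF-β, and TGF-β+2APB was 1.06 ± 0.11 below TGF-β (FDR 0.0049) and overlapped DMSO.

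The other genes that rose with TGF-β, named because they were few and chosen after their values were seen, were the lipid droplet coat gene Plin2 (1.08 ± 0.089), the fatty acid transporter Slc27a1 (0.75 ± 0.087) and the peroxisomal enzyme Hsd17b4 (0.25 ± 0.072). Slc27a1 was 1.95 ± 0.089 above DMSO with TGF-β+2APB and 1.19 ± 0.086 above TGF-β alone (FDR 0.0031), and Plin2 was 1.62 ± 0.090 and 0.55 ± 0.088 above them. The coactivator Ppargc1b fell by 1.42 ± 0.16 with TGF-β and was 0.78 ± 0.16 higher with TGF-β+2APB than with TGF-β (FDR 0.025).

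**Figure D4:**
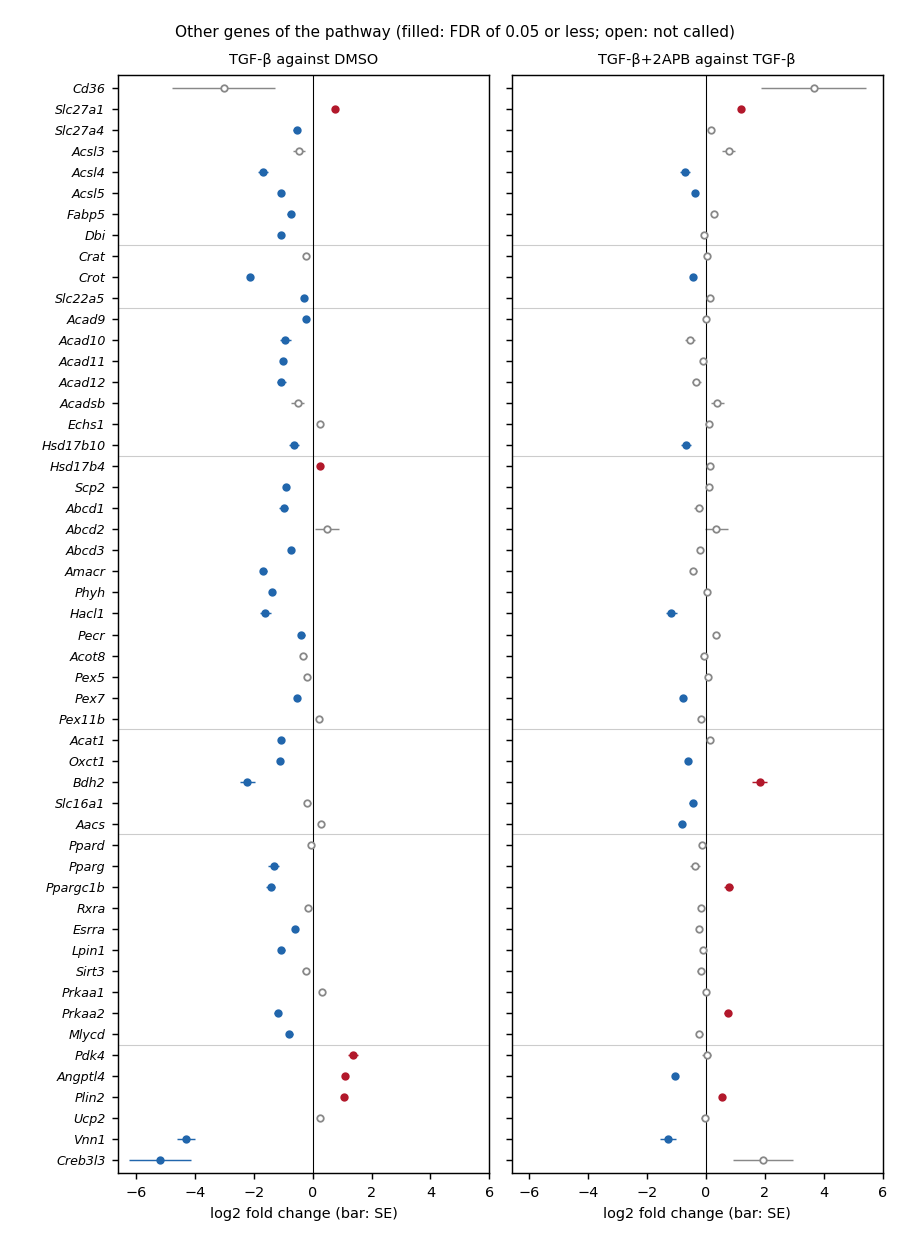
Log2 fold change (x axis, bars are SE) of other pathway genes tested, without those not reported here, in the order uptake, carnitine, mitochondrial, peroxisomal, ketone body, regulators and other PPAR targets, for TGF-β against DMSO and TGF-β+2APB against TGF-β. With TGF-β most filled points are on the lower side and 5 are on the higher side, and Bdh2 is the filled point farthest to the right between the treated groups.

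Against DMSO, most hepatocyte markers tested moved the same way as the pathway. All 14 listed were present and 9 passed the filter. Of these, 8 were lower than DMSO in both treated groups (19.7% of all genes with TGF-β and 27.2% with TGF-β+2APB). Alb, the albumin gene, had 32124 and 27900 counts in DMSO, 96 and 40 under TGF-β, and 40 and 20 under TGF-β+2APB. Hnf4a, the factor that defines much of the hepatocyte program, had 43312 and 40626, then 19628 and 13558, then 8574 and 11586. The summed normalized counts of the markers without Apob were 136758 and 127240 in DMSO, 20416 and 14767 under TGF-β, and 8642 and 11617 under TGF-β+2APB. Apob, the most abundant of them, was not called against DMSO, and with it the sums were 505286 and 491679, 219055 and 344057, and 540606 and 604174. In TGF-β+2APB against TGF-β 3 of the 9 markers were lower (10.9% of all genes) and 1, Apob, was higher (6.58%). Apob changed there by 1.09 ± 0.23 on the log2 scale (FDR 0.029). Apoa2, Apoh, Ahsg, Tat and Cps1 had at most 26 counts in any library. The part of these markers in the change of the pathway was not tested.

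Of the adipocyte markers, Adipoq had at most 2 counts in every library, and Lep, Plin1 and Cfd had no row. Cidec had 146 and 158 counts in DMSO and at most 8 in the other libraries. Of the blood cell markers, Ptprc, Cd68 and Csf1r were present, and their summed normalized counts were 629 and 481.4 in DMSO, 335 and 244.9 under TGF-β, and 322.7 and 2330 under TGF-β+2APB, with 0 of 3 called in any comparison. The high library, TGF-β+2APB replicate 2, was also the high one for the fatty acid transporter Cd36, with 730 counts against 8 in replicate 1 and 258 and 208 in DMSO, and for Fabp4, with 90 against 2 to 16 elsewhere, so neither level can be read as that of the group. Without that library Cpt1a, Acaa2 and Acox2 were still called between the treated groups and Acadm was not.

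**Figure D5:**
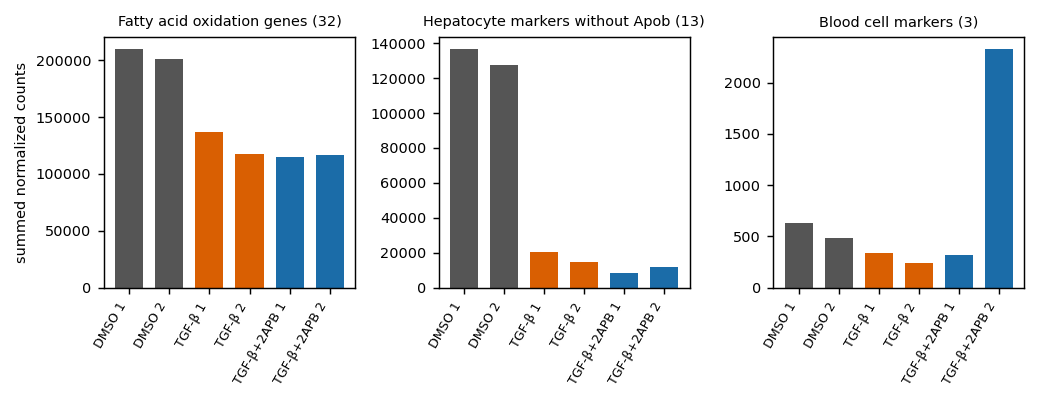
Summed normalized counts (y axes, from 0) per library of the 32 members, of 13 hepatocyte markers without Apob and of the 3 blood cell markers found. The first 2 sums are highest in both DMSO libraries, and the third is highest in TGF-β+2APB replicate 2, at 2330.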

How the data were processed

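RNA of NMuMG cells was sequenced as single-end reads by the authors, who checked the reads with FastQC 0.11.2, aligned them with TopHat2 2.0.13 and counted them on genes with featureCounts. The deposited values are these counts, with no scaling across libraries. The submitters' processing notes name mm10 and the paper's methods hg19, and the symbols are mouse. Strand setting and treatment of multiply aligned reads are not given in the sources used here. All values were even, the smallest above 0 was 2, and 25 names had turned into dates. Counting precision is therefore not known exactly, and limits from counts cover counting error in the treated libraries only.

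The fits used edgeR 4.0.16 under R 4.3.3. TMM factors were computed over all rows, genes averaging 20 or more normalized counts were kept, and 1 quasi-likelihood model of the 3 groups was fitted. Pairs of groups were compared with its F-test and Benjamini-Hochberg FDR over all genes tested. SE is the size of the log2 fold change over √F. Alternatives were RLE and library size scaling, DESeq2 1.42.0, other filters, 4-library fits, halved counts, a replicate block and leaving out each library.

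The 32 members, the list of 67 other pathway genes and the marker lists were chosen with earlier results of these data known. All members could be named. From the second list these were the called genes with the largest changes, up to 8 per comparison, and a few genes whatever they did, including Cpt1b, Pdk4 and Angptl4. Some genes of that list count in its totals and are not reported here. Gene positions, transcript lengths and shared 50-base stretches came from GENCODE on GRCm38, and promoters from RefSeq on GRCm38.p6.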

Additional observations from a re-analysis of the deposited data

How the results depend on the processing

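With 2 replicates per group, the SD over all genes of the log2 difference between replicates was 0.334 in DMSO, 0.567 in TGF-β and 0.78 in TGF-β+2APB. Over all alternatives, the member values kept direction and side of the threshold 1206 times, gained a call 43 times, lost one 77 times and changed sign 24 times, the last only for values that were not called. The cause was not tested.

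Members called in TGF-β against DMSO (24) ranged from 11 to 24 when 1 library was left out, those in TGF-β+2APB against DMSO (24) from 18 to 29, and those in TGF-β+2APB against TGF-β (4) from 3 to 14. DESeq2 gave 7 in the last comparison, where it called 1674 higher and 2024 lower of all genes, against 879 and 1455 in edgeR. The shares of all genes called also changed with the library left out, so these ranges alone do not set the pathway apart. In the last comparison the main fit called 6.58% of all genes higher and 10.9% lower. With only the 4 libraries compared in the fit, these shares were 2.81% and 3.73%. The other pathway genes called ranged from 29 to 44 (38), 27 to 44 (41) and 6 to 27 (16), and a fit of only the 4 libraries compared gave 6 in the last.

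Replicate numbers were shared in the labels, but whether they pair the libraries is not known. Replicate differences correlated across genes at 0.148 for DMSO and TGF-β, -0.458 for DMSO and TGF-β+2APB and -0.255 for TGF-β and TGF-β+2APB. With the number as a replicate block, 21, 23 and 3 members and 34, 34 and 9 other pathway genes were called. The shares of all genes called higher and lower were 18.7% and 16.8%, 23.1% and 24.5%, and 3.8% and 6.25% in the same order. With the TGF-β+2APB numbers exchanged in the block, a setting chosen after seeing the data, 25, 23 and 7 members and 38, 40 and 19 other genes were called. The shares of all genes were then 21.8% and 20.9%, 26.3% and 27.9%, and 6.97% and 11.5%.

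Library size scaling turned the sign of Acox3 with TGF-β (-0.011) and, between the treated groups, of Acads (-0.0067), Etfdh (-0.00070), Ech1 (-0.023) and Acaa1a (-0.014). Leaving out 1 library gave these ranges of values that crossed 0. With TGF-β they were -0.076 to 0.14 for Acadvl and -0.066 to 0.10 for Acox3. With TGF-β+2APB against DMSO they were -0.062 to 0.0010 for Acox3. Between the treated groups they were -0.58 to 0.24 for Ppara, -0.045 to 0.60 for Ppargc1a, -0.14 to 0.37 for Acot1, -0.39 to 0.24 for Acot2, -0.025 to 0.18 for Acadl, -0.12 to 0.19 for Acads, -0.065 to 0.099 for Etfdh, -0.15 to 0.086 for Eci2, -0.11 to 0.14 for Ech1, -0.13 to 0.028 for Acox3 and -0.15 to 0.21 for Acaa1a.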
